A study of Mus musculus with 4 samples.

Results

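The 10 genes *Ly6a*, *Thy1*, *Eng*, *Nt5e*, *Vcam1*, *Icam1*, *Lepr*, *Alcam*, *Cd44* and *Vim* encode surface proteins and 1 cytoskeletal protein by which mesenchymal stroma cells (MSCs) are commonly recognized. The rule that lists them goes by gene name and uses no measured value, although earlier results of these data were known when it was made. They are 10 of the 22911 genes with a symbol on the array. The transcript accessions matched 17 spots to them, of 59305 spots that are not controls, and each of the 17 spots is a probe of its own. *Lepr* has 4 probes, *Cd44* has 3, *Vcam1* and *Alcam* have 2 each, and the other genes have 1.

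RNA was measured in one color on 4 Agilent mouse expression arrays, 1 for each of MSCs and CD8+ T cells from wild type (Wt) and *Sipa1*-/- mice, which the labels call sipa1 KO. Mice were of strain C57BL/6Ncr and aged 8 weeks, and they received *Bcr-Abl*+ GFP+ hematopoietic progenitor cells (HPCs) under the skin in Matrigel. Tumors were collected on day 12. MSCs were gated as negative for GFP, CD45, Ter119 and CD31, and CD8+ T cells as GFP-negative cells positive for TCRβ and CD8. The study used 5 mice per genotype, and whether the RNA of an array came from pooled mice is not stated. Each group has 1 array, so no value has a replicate check, no test was run, and the number of arrays limits the precision.

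MSCs have no single defining marker and are recognized by a combination of surface proteins together with the lack of blood and endothelial ones. Several of these proteins are found on other cells too, since mouse T cells carry Thy1 and CD44, and activated endothelium carries VCAM-1 and ICAM-1. In mouse bone marrow, Sca-1 (*Ly6a*) and the leptin receptor mark stroma cells that support hematopoiesis.

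Spots well above background made up 64.7% of spots on the array of Wt MSCs, 65.3% on that of *Sipa1*-/- MSCs, 60.3% on that of Wt CD8+ T cells and 60.8% on that of *Sipa1*-/- CD8+ T cells. The array's 75th percentile of signal was 19.7, 19.1, 18.0 and 16.4 times its median background in that order, and the order is kept wherever 4 values follow each other. No spot was saturated. Levels are log2 signals minus the 75th percentile of the array, so that 0 is the 75th percentile. Ratios are differences of these levels, with *Sipa1*-/- over Wt for the genotype and MSCs over CD8+ T cells for the cell type, and a ratio of 1 is a 2-fold difference. A gene counts as measured where at least 1 of its probes passed the scanner's quality flags on both arrays of a comparison. Among probes printed on 10 spots, 2 SD of the difference between 2 spots came to 0.12 on the log2 scale, which covers spot noise and not the spread between mice.

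The genotype labels were checked on *Sipa1* itself, which encodes a GTPase-activating protein for Rap1. One probe (A_55_P2133840) gave 5.03, 3.78, 5.40 and 3.73, and the other (A_51_P191331) gave 3.05, 1.46, 3.43 and 1.39. In MSCs and in CD8+ T cells both probes were lower where the label was sipa1 KO, and well above background on all 4 arrays. The gene's ratio was -1.42 in MSCs and -1.86 in CD8+ T cells, below 0 under all 8 alternative settings. Each alternative but normexp changed 1 step. The flags were asked of at least 1 array or of none, or a gene was read by its brightest probe. Another scaling was a shift by the array's median, quantile normalization, or the percentile over probes detected on all arrays. One alternative took the values of the authors' series matrix. Normexp background correction also started from the median spot signal and added an offset of 50, so it changed these together.

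The cell type labels were checked against defining markers. Of 10 fibroblast markers, all 10 were well above background on every array, with a summed signal of 987, 1657, 42.1 and 129 times the 75th percentile and *Col1a2* the brightest on each. Of 9 CD8+ T cell markers on the array, 8 were well above background on the array of Wt MSCs, where *Cd8a* was not, and 9 on the other arrays. Their summed signal was 20.8, 4.78, 609 and 624, with *Cd2* the brightest on both MSC arrays and *Cd8b1* on both CD8+ T arrays. The stromal markers were thus high in the MSC sorts and the T cell markers in the CD8+ T sorts. In the Wt comparison of cell types 9 of 9 measured fibroblast markers were at least 2-fold higher in MSCs (median 5.22) and 8 of 8 T cell markers at least 2-fold lower (median -6.95). In *Sipa1*-/- cells these were 9 of 9 (median 5.45) and 9 of 9 (median -6.86).

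Genes of the proteins used to gate MSCs were read as well. *Ptprc* (CD45) had levels of 0.76, -0.55, 4.38 and 4.48, and *Pecam1* (CD31) had -1.47, -2.96, -1.05 and -1.23. Both genes were thus well above background in MSCs gated as negative for CD45 and CD31. A list of 10 genes whose proteins MSCs are usually required to lack, *Ptprc* and *Pecam1* among them, was well above background for 10 of 10 on each array. Its summed signal was 129, 161, 383 and 455, and the brightest gene was *Cd34* in *Sipa1*-/- MSCs and *H2-Eb1* in both CD8+ T sorts.

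**Figure D1:**
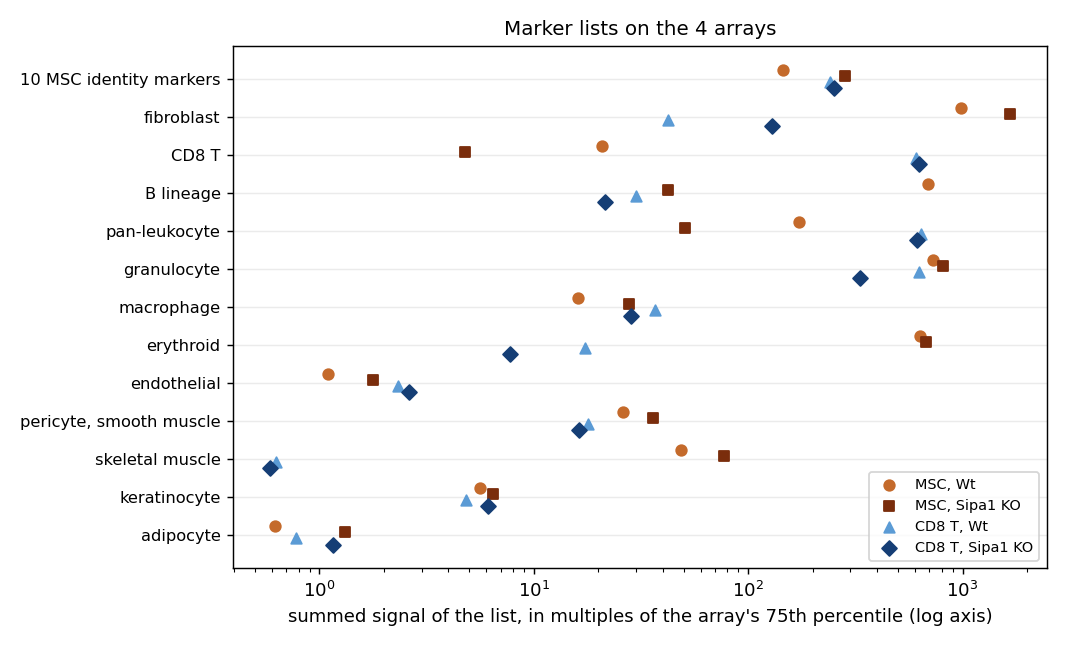
Summed signal of each marker list on the 4 arrays, in multiples of the array's 75th percentile on a log axis, with 1 point per array. The fibroblast list stood at 987 and 1657 on the MSC arrays, the CD8 T list at 609 and 624 on the CD8+ T arrays, and the B lineage list at 689 on the array of Wt MSCs and 42.3 on that of *Sipa1*-/- MSCs.

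The comparison of *Sipa1*-/- with Wt MSCs asked how the stroma of the tumor differs when the host lacks *Sipa1*. In it, 5 of the 10 markers were at least 2-fold higher in *Sipa1*-/- MSCs (*Nt5e*, *Vcam1*, *Ly6a*, *Thy1* and *Lepr*), where 19.3% of the 15298 measured genes were. Under the shift by the median 3 of 10 were, without *Thy1* and *Lepr*, where 2563 of 15298 genes were. *Lepr* was also below 2-fold without flags, under normexp and with the brightest probe. At least 2-fold lower were 0 of 10, where 11.3% of all genes were. All 10 ratios were above 0, but those of *Eng* and *Alcam* turned below 0 under the shift by the median, and that of *Alcam* under quantile normalization too. The median ratio was 1.00, and that of all genes was 0.04. *Nt5e* had the largest ratio of the 10, above that of 94.2% of all measured genes, and *Vcam1* was above 90.3%. *Eng* and *Alcam*, at 50.3% each, stood in the middle of all genes. Fewer cells of a type in a sort and less RNA per cell cannot be told apart.

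Marker lists of other cell types moved in the same comparison. Of 9 measured fibroblast markers, 9 had a ratio above 0 with a median of 1.56, and 5 were at least 2-fold higher. Their ratios ran from 0.26 to 2.54, and the 4 measured ones with the highest mean signal (*Col1a2*, *Dcn*, *Col3a1* and *Col1a1*) lay between 0.26 and 0.86. B-lineage markers went the other way, with 11 of 11 measured genes at least 2-fold lower and a median of -4.22. Their summed signal was 689, 42.3, 29.8 and 21.5, with *Vpreb1* the brightest on the array of Wt MSCs, *Vpreb3* on that of *Sipa1*-/- MSCs and *Cd79b* on the others. All 12 were well above background on the array of Wt MSCs, 11 on that of *Sipa1*-/- MSCs (not *Rag1*) and 10 on each CD8+ T array (not *Rag1* and *Rag2*). Pan-leukocyte markers were at least 2-fold lower for 7 of 8, with a median of -1.54 and a summed signal of 172, 50.8, 640 and 617, all 8 well above background on each array, *Coro1a* the brightest on the first and *Cd52* on the others. The part of these lists in the marker ratios was not tested.

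Of the 10 markers, the 3 for proteins held in the membrane by a GPI anchor were at least 2-fold higher in *Sipa1*-/- MSCs. Genes of GPI-anchored proteins did not all go this way. Of 9 measured genes in the GPI-anchored family of *Ly6a*, 7 had a ratio above 0 and 2 below, *Ly6e* (-0.31) and *Ly6d* (-3.07). *Ly6a*, the gene of the stem cell antigen Sca-1, had levels of 5.27, 6.41, 4.01 and 4.32 (probe A_51_P265495). It was highest on the array of *Sipa1*-/- MSCs and lowest on that of Wt CD8+ T cells, and 2.21-fold higher in *Sipa1*-/- than in Wt MSCs. *Thy1*, which encodes CD90, had levels of 5.41, 6.55, 7.37 and 7.46 (A_55_P2072035). Both CD8+ T arrays were above both MSC arrays, and the array of *Sipa1*-/- MSCs was 2.20-fold above that of Wt MSCs, a difference that fell to just under 2-fold with the shift by the median. *Nt5e*, the gene of the ecto-5′-nucleotidase CD73, which forms adenosine from AMP outside the cell, had levels of -2.23, -0.45, 0.60 and 0.39 (A_52_P574668). It was lowest in Wt MSCs, 3.45-fold higher in *Sipa1*-/- MSCs, and higher than either in both CD8+ T sorts.

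The receptor genes *Eng* and *Lepr* differed between genotypes in unlike ways. *Eng*, the gene of the TGF-β co-receptor endoglin (CD105), had levels of 1.32, 1.37, -0.68 and -0.46 (A_55_P2040936). The MSC arrays were both above the CD8+ T arrays, while the ratio between genotypes in MSCs was 0.05, within the spot noise, and -0.09 under the shift by the median. *Lepr*, the leptin receptor gene, had a mean ratio of 1.04 in MSCs over 3 measured probes that differed among themselves. Probe A_55_P2177910 gave 0.55, 0.81, 1.01 and 0.93, nearly level over the 4 arrays. Probe A_55_P2177911 gave -2.82 in Wt and -1.59 in *Sipa1*-/- MSCs, and probe A_55_P2506350 gave -1.05 and 0.59. On the CD8+ T arrays neither of these was well above background, and A_66_P130517 was not on any array. The genotype ratios of the 3 measured probes in MSCs were thus 0.25, 1.23 and 1.64, and the gene's place past 2-fold rests on the last 2 of them.

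For a probe that is not well above background on 1 of 2 arrays, the ratio is given as a bound. The bound takes for that array the lowest level that any spot well above background had on it, which was -5.56 in Wt and -5.49 in *Sipa1*-/- CD8+ T cells and lay above the signals read. Taken so, A_55_P2177911 was at least 6.70-fold higher in MSCs than in CD8+ T cells of Wt tumors and at least 15.0-fold in *Sipa1*-/- tumors. A_55_P2506350 was at least 22.8-fold and at least 67.7-fold higher. Since the main values use probes that pass on both arrays, only the level probe A_55_P2177910 entered the *Lepr* ratio between cell types, which was -0.46 in Wt and -0.13 in *Sipa1*-/- cells. With the flags asked of at least 1 array or of none, both ratios turned above 0, but probes not well above background in CD8+ T cells then enter the mean, so no size is given. The second ratio turned above 0 under the series matrix values too. Which transcript forms of *Lepr* the probes read was not tested.

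Of the 3 adhesion genes of the immunoglobulin superfamily, *Vcam1* was past 2-fold in MSCs, and *Icam1* and *Alcam* were not. *Vcam1*, the gene of the ligand for α4 integrins, had levels of 2.55, 3.88, -0.32 and -0.02 by probe A_51_P210956. Its probe A_52_P520495 gave -1.31, 0.43, -4.99 and -3.98. By both probes the 4 arrays had the same order, with *Sipa1*-/- MSCs highest, Wt MSCs next, then *Sipa1*-/- and Wt CD8+ T cells. The gene's ratio between genotypes was 1.54 in MSCs (2.90-fold), from 1.33 and 1.74 by probe.

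*Icam1*, whose product binds the leukocyte integrin LFA-1, had levels of -0.50, -0.17, -0.03 and -0.11 (A_52_P613241). All 4 arrays lay close to each other, and the MSC genotype ratio was 0.33. *Alcam*, the gene of CD166 and ligand of CD6, had levels of -3.74, -3.99, -0.73 and -0.28 by A_51_P359272. By A_55_P2914546 it had -1.35 in Wt MSCs, with a ratio of 0.35 to *Sipa1*-/- MSCs, and 0.92 and 1.33 on the CD8+ T arrays. Both probes were higher on the CD8+ T arrays, and in MSCs they lay on opposite sides of 0 between genotypes, the first with a ratio of -0.25.

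*Cd44*, the gene of the main hyaluronan receptor, was read by 3 probes. Probe A_55_P2912261 gave 0.63, 1.49, 1.77 and 1.64, and A_55_P2166501 gave 0.29, 0.76, 2.14 and 1.80. Probe A_55_P2166488 gave -4.97, -3.41, -3.73 and -3.26. Each of the 3 probes was lowest in Wt MSCs. Their genotype ratios in MSCs were 0.86, 0.47 and 1.56, with a mean of 0.96 (1.95-fold). The mean fell to 0.57 under normexp and passed 2-fold at 1.17 with the values of the series matrix. The largest of the 3 ratios came from the dimmest probe, at -4.97 in Wt MSCs. The lowest level well above background on that array was -5.86. *Vim*, which encodes the intermediate filament protein vimentin, had levels of 5.80, 6.50, 5.69 and 5.60 (A_51_P392687). The array of *Sipa1*-/- MSCs was above the other 3, which lay close together, and the ratio in MSCs was 0.69 (1.62-fold), or 1.17 under quantile normalization.

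**Figure D2:**
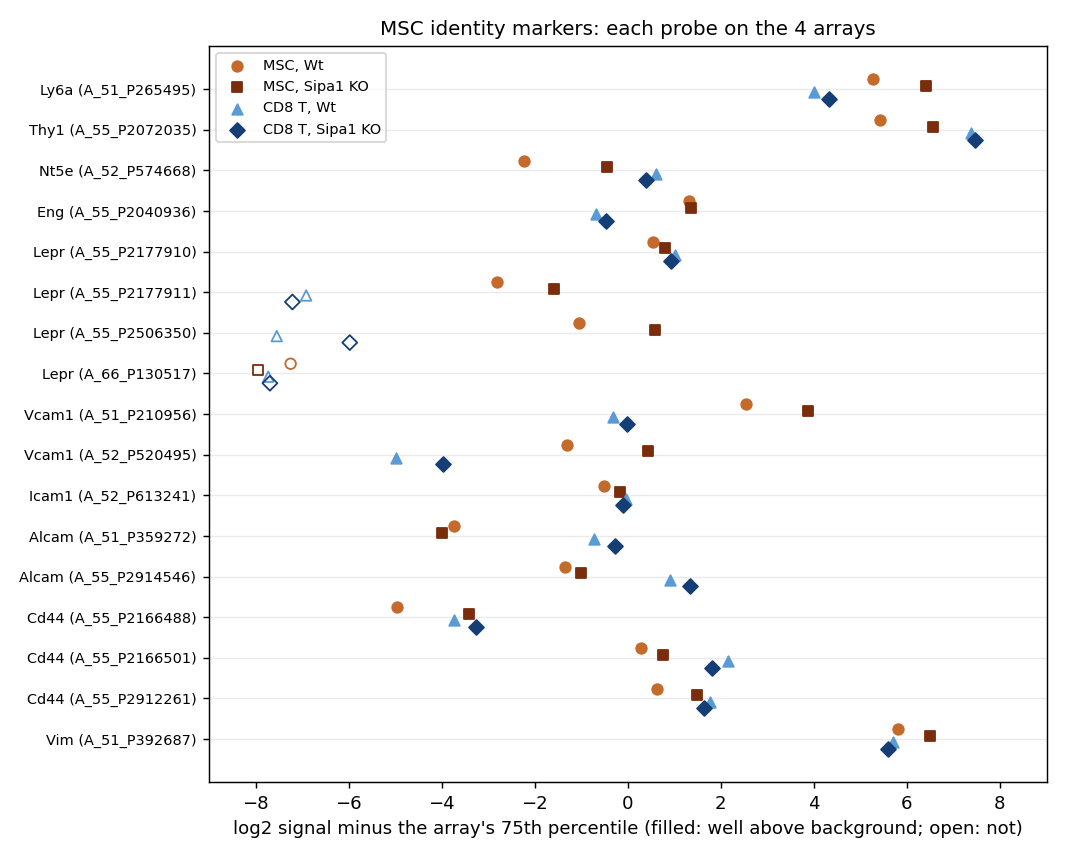
Log2 signal minus the array's 75th percentile for each of the 17 probes on the 4 arrays, with filled points well above background and open points not. *Ly6a*, *Thy1*, *Nt5e* and both *Vcam1* probes were higher in *Sipa1*-/- than in Wt MSCs, and 3 of the 4 *Lepr* probes were not well above background on the CD8+ T arrays.

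The comparison of *Sipa1*-/- with Wt CD8+ T cells shows the same genes in a second cell type from the same kind of tumor. At least 2-fold higher in *Sipa1*-/- CD8+ T cells were 0 of 10 markers, where 2.66% of the 14339 measured genes were, and at least 2-fold lower were 0 of 10, where 1.4% were. The median ratio was 0.04, which turned to -0.10 under the shift by the median, and that of all genes was -0.02. The ratios ran from -0.21 for *Nt5e* to 0.65 for *Vcam1*. *Alcam* had 0.43, *Ly6a* 0.31 and *Eng* 0.22, and these 5 kept their sign under all 8 alternatives. The other 5 lay between -0.09 and 0.09 and each turned sign under at least 1 alternative, *Thy1* under the shift by the median, *Icam1* and *Vim* under the series matrix values, *Lepr* without flags and under the series matrix values, and *Cd44* under the percentile over detected probes and the series matrix values.

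Some marker lists moved between the CD8+ T arrays. All 10 fibroblast markers were at least 2-fold higher in *Sipa1*-/- CD8+ T cells (median 1.63), with *Col1a2* at 4.24 and 5.77. Of 8 granulocyte markers, 5 were at least 2-fold lower (median -1.08), and so were 5 of 6 measured erythroid markers (median -1.14). The T cell markers were level, with 0 of 9 past 2-fold and a median of 0.01 that turned below 0 under the shift by the median. B-lineage markers had 3 of 10 at least 2-fold lower and a median of -0.17. *Vcam1*, the marker with the largest ratio in these cells under the main settings, had 0.30 by A_51_P210956 and 1.01 by A_52_P520495. The second probe was dim, at -4.99 and -3.98, where the lowest levels well above background were -5.56 and -5.49. The gene's ratio of 0.65 fell to 0.27 under normexp and 0.30 with the brightest probe, where *Alcam* had 0.36 and 0.41. The part of the marker lists in these ratios was not tested.

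**Figure D3:**
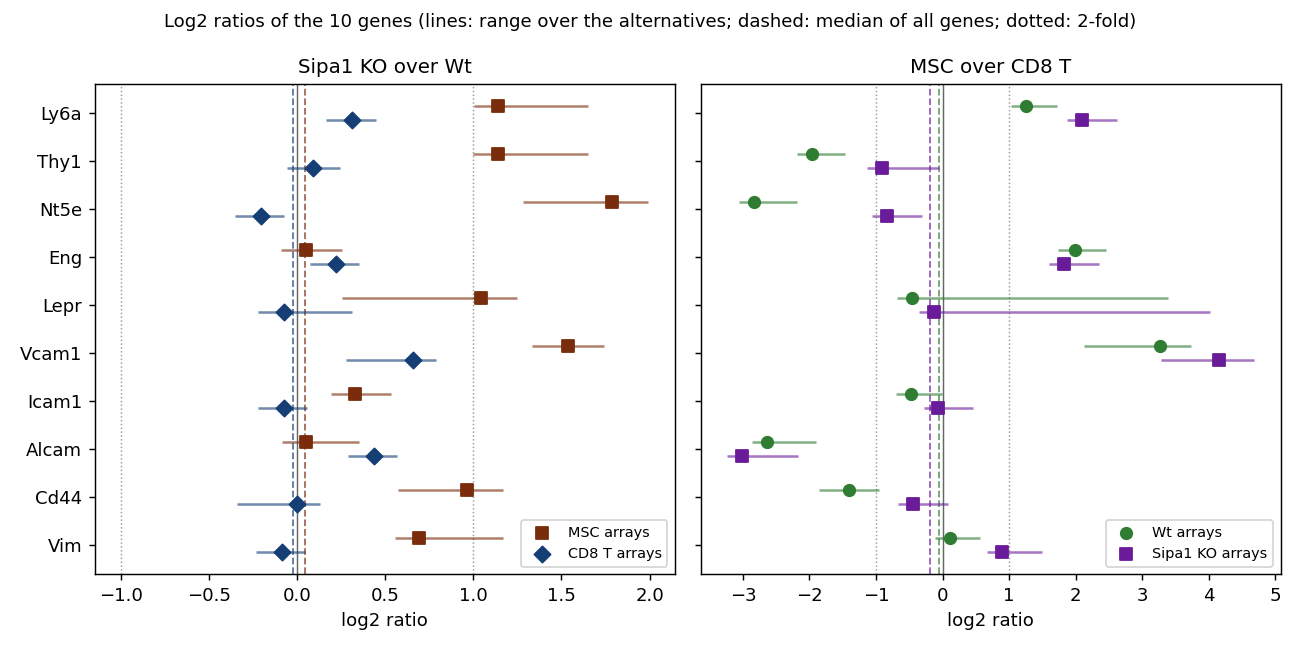
Log2 ratios of the 10 genes in the 4 comparisons, *Sipa1*-/- over Wt in each cell type and MSCs over CD8+ T cells in each genotype, with 1 point per gene and comparison, solid lines over the range of the 8 alternatives, dashed lines at the median of all genes and dotted lines at 2-fold. *Eng* and *Alcam* in MSCs and *Thy1*, *Icam1*, *Lepr*, *Cd44* and *Vim* in CD8+ T cells turned sign between genotypes under 1 or more alternatives, as did *Lepr* and *Vim* between the Wt cell types and *Icam1*, *Lepr* and *Cd44* between the *Sipa1*-/- cell types.

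The comparison of the cell types asks whether genes used to recognize MSCs were higher in them than in T cells sorted from tumors of the same genotype. Whether the sorts of a genotype came from the same tumors is not stated. In Wt tumors 3 of 10 were at least 2-fold higher in MSCs (*Vcam1*, *Eng* and *Ly6a*), where 17.3% of the 14225 measured genes were. At least 2-fold lower in MSCs were 4 of 10 (*Nt5e*, *Alcam*, *Thy1* and *Cd44*), where 12.8% were. The median ratio was -0.46, and that of all genes was -0.06. *Vcam1* was 9.65-fold, *Eng* 3.99-fold and *Ly6a* 2.39-fold higher in Wt MSCs. *Nt5e* was 7.14-fold, *Alcam* 6.22-fold, *Thy1* 3.89-fold and *Cd44* 2.66-fold higher in Wt CD8+ T cells. Under normexp the log2 ratio of *Vcam1* was 2.13 against 3.27, that of *Nt5e* -2.18 against -2.84 and that of *Alcam* -1.90 against -2.64.

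In *Sipa1*-/- tumors the same 3 genes were at least 2-fold higher in MSCs, where 21.9% of the 14300 measured genes were. At least 2-fold lower was 1 of 10, *Alcam*, where 18.7% were. Under the shift by the median 3 of 10 were, with *Nt5e* and *Thy1* added, where 3714 of 14300 genes were. The median ratio of -0.10 turned above 0 without flags, with flags on at least 1 array and under the series matrix values, and that of all genes was -0.18. *Vcam1* was 17.8-fold higher in *Sipa1*-/- MSCs and *Alcam* 8.10-fold higher in *Sipa1*-/- CD8+ T cells, with log2 ratios of 4.15 and -3.02, which under normexp were 3.29 and -2.17. With the brightest probe *Alcam* had -2.33. *Thy1* had a ratio of -0.91 here, or -0.06 under quantile normalization, and -1.96 in Wt, *Nt5e* -0.84 and -2.84, and *Cd44* -0.45 and -1.41, of which *Cd44* turned above 0 in *Sipa1*-/- cells under the series matrix values. *Icam1* had -0.06, above 0 under normexp and the series matrix values, and -0.47 in Wt. *Vim* stood at 0.89 in *Sipa1*-/- cells, or 1.50 under quantile normalization, and at 0.11 in Wt, where it turned to -0.12 under the shift by the median. The comparisons of genotypes and of cell types share arrays, so these values are given side by side and were not tested against each other.

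Beside these cell type ratios stand other marker lists. B-lineage markers were at least 2-fold higher in Wt MSCs than in Wt CD8+ T cells for 10 of 10 measured genes (median 4.31), and in *Sipa1*-/- cells for 4 of 10 (median 0.30). Erythroid markers were at least 2-fold higher in MSCs for 6 of 6 in each genotype (medians 5.57 and 6.59), with a summed signal of 631, 673, 17.3 and 7.73 and *Hba-a1* the brightest on each array. Skeletal muscle markers were at least 2-fold higher for 5 of 5 and 4 of 4 (medians 6.64 and 7.23, or 4.88 and 5.77 under normexp), summed to 48.7, 77.1, 0.63 and 0.59. Pan-leukocyte markers were at least 2-fold lower in MSCs for 8 of 8 in both genotypes (medians -1.99 and -3.74). Macrophage markers were at least 2-fold lower in MSCs for 6 of 8 in Wt and 4 of 8 in *Sipa1*-/- cells (medians -1.83 and -0.74). Granulocyte markers were at least 2-fold higher in MSCs for 3 of 8 in Wt, with a median of 0.12 that turned below 0 under the shift by the median, and for 7 of 8 in *Sipa1*-/- cells (median 1.71). Pericyte and smooth muscle markers were higher by that much for 4 of 7 and 8 of 8, with a median of 1.24 in Wt (0.64 with the brightest probe) and 3.05 in *Sipa1*-/- cells (1.66 under normexp). Keratinocyte markers were so for 3 of 4 and 4 of 5, with 1 lower in *Sipa1*-/- cells (medians 2.16 and 2.25, or 1.42 and 1.48 under normexp). Endothelial markers were at least 2-fold lower in MSCs for 3 of 5 in Wt and 4 of 7 in *Sipa1*-/- cells, where 1 was higher (medians -1.18 and -1.56). Of 2 measured adipocyte markers 0 passed 2-fold in either genotype. The part of these lists in the cell type ratios was not tested.

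The counts of this and the later lists stand against the shares of all measured genes past 2-fold. Between the MSC arrays 19.3% were higher in *Sipa1*-/- cells and 11.3% lower, and between the CD8+ T arrays 2.66% and 1.4%. In MSCs over CD8+ T cells 17.3% were higher and 12.8% lower in Wt, and 21.9% and 18.7% in *Sipa1*-/- cells. Further lists were read between the genotypes in MSCs, and several of their counts lie near these shares. Granulocyte markers had 2 of 8 at least 2-fold higher (median 0.27, summed signal 725, 815, 626 and 332, *S100a9* the brightest on each array), and macrophage markers 2 of 8 (median 0.67, summed signal 16.1, 27.9, 36.7 and 28.4). Pericyte and smooth muscle markers had 4 of 8 at least 2-fold higher (median 0.85, summed signal 26.0, 36.0, 17.8 and 16.2). Endothelial markers had 2 of 6 higher and 1 lower (median 0.36), at a summed signal of only 1.10, 1.78, 2.32 and 2.61, and *Cldn5* and *Tie1* were not well above background in Wt MSCs, *Tie1* in *Sipa1*-/- MSCs and *Tek* in Wt CD8+ T cells. Keratinocyte markers had 1 of 5 higher (median 0.75, summed signal 5.60, 6.46, 4.80 and 6.11), adipocyte markers 1 of 2 (median 0.68, summed signal 0.62, 1.32, 0.78 and 1.16), skeletal muscle markers 0 of 6 (median 0.49) and erythroid markers 0 of 7, with a median of -0.08 that turned above 0 under the series matrix values. T cell markers were split, with 3 of 8 higher (0 of 8 under normexp) and 3 lower (median 0.67). The higher ones were *Cd3g* (ratio 1.43), *Cd8b1* (1.305) and *Cd3d* (1.10). The lower ones were *Cd2*, which went from 4.08 to 0.56, *Zap70* (-1.59) and *Lck* (-1.07).

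Genes outside the 10 that are used to recognize MSCs by surface protein were read as a second list of 22. Between the MSC arrays 15 of 21 measured genes were past 2-fold upward on the *Sipa1*-/- side and 2 downward, with a median of 1.22. The 4 with the highest mean signal were *Cd63*, *Mcam*, *Anpep* and *Cd248*. *Cd63*, a tetraspanin gene, had levels of 5.89, 7.36, 3.12 and 3.77, and *Anpep*, the gene of aminopeptidase N (CD13), had 3.88, 5.84, 2.54 and 3.20. *Cd248*, which encodes endosialin, had 5.60, 7.22, 0.17 and 1.59. These 3 were highest on the array of *Sipa1*-/- MSCs. *Mcam*, the gene of CD146, was lower in *Sipa1*-/- than in Wt MSCs, with levels of 4.07, 3.45, 4.39 and 4.50.

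In CD8+ T cells 4 of 21 genes of this list were at least 2-fold higher in *Sipa1*-/- cells and 0 lower (median 0.51). Between cell types 13 of 20 were at least 2-fold higher in MSCs and 1 lower in Wt (median 2.04), and 13 of 20 and 2 in *Sipa1*-/- cells (median 2.57). The summed signal was 256, 649, 65.6 and 81.2, and that of the 10 markers was 145, 284, 241 and 252, with *Vim* the brightest on the array of Wt MSCs and *Thy1* on the others. The second list was thus higher on both MSC arrays than on the CD8+ T arrays. The sum of the 10 markers was lowest in Wt MSCs, but that order rests on *Thy1*. This gene alone gave 165 of the 241 in Wt and 176 of the 252 in *Sipa1*-/- CD8+ T cells. In *Sipa1*-/- MSCs it gave 93.8 of the 284.

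*Ly6a* belongs to a family of small GPI-anchored proteins, of which 9 of 10 listed genes were on the array and *Ly6g* was not matched. In MSCs 4 of 9 were at least 2-fold higher in *Sipa1*-/- cells, or 2 of 9 under the shift by the median, and 1 lower, with a median of 0.91. The 4 with the highest mean signal were *Ly6c2*, *Ly6c1*, *Ly6e* and *Ly6a* itself. *Ly6c2* had levels of 6.70, 7.73, 7.56 and 7.53, *Ly6c1* 5.29, 6.35, 6.51 and 6.42, and *Ly6e* 6.04, 5.73, 6.25 and 6.29. *Ly6c1* and *Ly6c2* were lowest in Wt MSCs, and *Ly6e* was lowest in *Sipa1*-/- MSCs, though quantile normalization put it above *Sipa1*-/- CD8+ T cells there. *Ly6d*, named as a family member, was the 1 gene lower, with levels of 2.79, -0.28, 2.18 and 2.40. In CD8+ T cells 0 of 9 passed 2-fold, with a median of -0.03 that turned above 0 under 3 alternatives. In MSCs over CD8+ T cells 2 were higher and 4 lower in Wt (median -0.87), and 2 and 3 in *Sipa1*-/- cells (median -0.56, above 0 under quantile normalization). The summed signal of the family was 272, 467, 395 and 392.

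A list of 23 binding partners, ligand-forming enzymes and co-receptors of the 10 markers had 7 of 22 measured genes at least 2-fold higher in *Sipa1*-/- MSCs and 3 lower. Its median of 0.11 turned below 0 under the shift by the median. In CD8+ T cells 3 of 22 were higher and 0 lower (median 0.08, below 0 under the shift by the median). Between cell types 6 were higher in MSCs and 7 lower in Wt, and 6 and 8 in *Sipa1*-/- cells, with medians of 0.07 and 0.08 that turned below 0 under the shift by the median, quantile normalization and other settings. The 4 with the highest mean signal were *Msn*, *Tgfbr2*, *Ezr* and *Itgb7*, and the summed signal was 117, 200, 299 and 309. The other genes of this list that follow were picked because they pair with a marker.

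For *Eng*, the signaling partners were higher in *Sipa1*-/- MSCs where *Eng* was level. *Tgfbr2*, the type II receptor of TGF-β, had levels of 4.88, 6.41, 3.97 and 4.05, and *Acvrl1*, the endothelial type I receptor ALK1, had 0.05, 1.43, -1.13 and -0.68. Both were highest on the array of *Sipa1*-/- MSCs. For *Nt5e*, *Entpd1* (CD39), which forms the AMP that CD73 uses, had -0.63, -0.75, -0.98 and 0.04. Its ratio was -0.12 in MSCs, above 0 under the series matrix values, and 1.02 in CD8+ T cells. The adenosine receptor gene *Adora2b* had -1.14, 0.07, -4.21 and -3.98, and *Ada*, whose product removes adenosine, had 1.60, 0.03, -0.17 and -0.53. *Adora2b* was thus higher and *Ada* lower in *Sipa1*-/- than in Wt MSCs. *Adora2a*, the receptor known from T cells, had -1.10, -0.95, 2.18 and 2.32, higher on both CD8+ T arrays.

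For *Vcam1*, the integrin gene *Itga4* had levels of -0.13, -2.10, 1.23 and 1.23, lowest in *Sipa1*-/- MSCs. *Itgb7*, which pairs with it on lymphocytes, had 1.00, 1.07, 6.09 and 6.06 and was high in both CD8+ T sorts. For *Icam1*, the LFA-1 genes *Itgal* (-1.18, -1.80, 2.57 and 2.73) and *Itgb2* (0.99, 0.70, 4.04 and 3.96) were likewise higher on the CD8+ T arrays. *Cd6*, the T cell receptor for ALCAM, had -1.51, -0.55, 6.07 and 6.43, so that both *Alcam* and *Cd6* were higher in the CD8+ T sorts.

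For *Cd44*, the hyaluronan synthase gene *Has1* had levels of 0.08, 2.69, -5.15 and -3.75, and *Has2* had -0.74, 0.65, -4.35 and -4.50. Both were higher in *Sipa1*-/- than in Wt MSCs and lower on the CD8+ T arrays, and *Has3* was not well above background on any array. The size of the difference between cell types depended on the setting. For *Has1* the lowest ratio under an alternative was 2.64 in Wt (main 5.23) and 4.70 in *Sipa1*-/- cells (main 6.44). For *Has2* it was 2.00 (main 3.62) and 3.13 (main 5.14). The ERM linkers that tie CD44 to actin differed, with *Ezr* at 3.83, 1.67, 4.77 and 4.52 and *Msn* at 5.01, 4.54, 6.05 and 5.97. Both were lowest in *Sipa1*-/- MSCs. For *Lepr*, the ligand gene *Lep* was nearly level, at -2.03, -2.08, -2.16 and -1.99. For *Thy1*, the integrin partners *Itgb3* (-1.53, -0.10, -1.11 and -0.77) and *Itgb5* (3.57, 5.48, -0.75 and 0.47) were each highest in *Sipa1*-/- MSCs.

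Filament and cytoskeletal genes were read beside *Vim* as a list of 14. In MSCs 3 of 12 measured genes were at least 2-fold higher in *Sipa1*-/- cells and 0 lower (median 0.63), and in CD8+ T cells 0 of 10 passed 2-fold (median 0.07, below 0 under the shift by the median). In MSCs over CD8+ T cells 5 of 11 were higher in Wt (median 0.59) and 7 of 11 in *Sipa1*-/- cells (median 1.52), and 0 were lower in either. *Plec*, which encodes the linker plectin, had levels of 1.32, 2.40, 2.27 and 2.45, and *Lmna*, a nuclear lamin gene, had 2.92, 4.07, -0.24 and 0.30. *Tagln*, a smooth muscle actin-binding protein gene, had 3.42, 3.93, 0.82 and 0.71. *Plec* was lowest in Wt MSCs, and *Lmna* and *Tagln* were higher on both MSC arrays. *Actb* was at 8.53, 8.34, 8.96 and 9.08, with a ratio of -0.18 in MSCs that turned above 0 under the series matrix values and 0.12 in CD8+ T cells that turned below 0 under the shift by the median. These 4 had the highest mean signal of the measured genes, and *Lmnb1* did not pass the flags. The summed signal was 460, 434, 576 and 621.

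The genes whose proteins MSCs are required to lack differed from one another. In MSCs 4 of 10 had a ratio past 2-fold above 0 and 4 below, with a median of -0.12 that turned above 0 under normexp, the series matrix values and the brightest probe. *Ptprc* went from 0.76 to -0.55. *Cd34*, which mouse stroma also carries, went from 2.58 to 4.07, and the MHC class II gene *H2-Eb1* from 3.90 to 5.20. In CD8+ T cells 0 were higher and 1 lower (median 0.08, below 0 under the shift by the median). In MSCs over CD8+ T cells 3 were higher and 5 lower in Wt (median -1.10), and 1 and 5 in *Sipa1*-/- cells (median -0.88).

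The profile of each marker over the 4 arrays was compared with those of 6662 named genes above the median signal, among 13766 genes that passed the flags on all 4. Likeness is the Euclidean distance between levels on 4 arrays, each gene taken minus its own mean, so that 0 is an identical profile on the log2 scale. For *Ly6a* the nearest were *Praf2* (0.16) and *Rras* (0.17), for *Thy1* *Zyx* (0.11) and *C1qb* (0.17), and for *Nt5e* *Rgs3* (0.34) and *Fxyd5* (0.38). For *Eng* they were *Ube2o* (0.07) and *Tubb2b* (0.17), and for the *Lepr* probe that passed on all arrays *Zfp639* and *Lgals8* (0.03 each). The adhesion genes had near them *Plxdc2* (0.08) for *Vcam1*, *Fam160a2* (0.02) and *Acot9* (0.04) for *Icam1*, and *H2-DMa* (0.17) and *Krtcap3* (0.25) for *Alcam*. *Cd44* was nearest to *Faap20* and *Actn1* (0.07 each), and *Vim* to *Morf4l2* (0.03) and *Rab6a* (0.04).

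The number of genes within a distance of 0.5 differed widely between markers. It was 6 for *Nt5e*, 16 for *Alcam*, 39 for *Eng*, 49 for *Thy1* and 63 for *Vcam1*. It was 108 for *Ly6a*, 147 for *Cd44*, 628 for *Vim* and 1333 for *Icam1*. For *Lepr* it was 1501, by probe A_55_P2177910 alone, the only one that passed on all 4 arrays. The *Lepr* probes with MSC genotype ratios of 1.23 and 1.64 did not enter these distances. Markers with nearly level profiles had the most neighbors. Among the 10 markers themselves the closest pair was *Icam1* and *Lepr* (0.06), with *Lepr* again read by A_55_P2177910 alone. *Thy1* and *Cd44* (0.52) and *Thy1* and *Nt5e* (0.65) followed, and the farthest pair was *Vcam1* and *Alcam* (6.63).

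Promoter sequences from RefSeq, assembly GRCm38.p6, were matched by symbol for 7 of the 10 genes in 8 entries, with 250 bases before and 50 after the start. No entry was matched for *Ly6a*, *Thy1* and *Vcam1*. They are shown for genes that were at least 2-fold higher in *Sipa1*-/- MSCs (*Nt5e* and *Lepr*, which has 2 starts) beside 3 that were not (*Icam1*, *Eng* and *Vim*). Capitals mark matches on either strand to GGNNNTTCC, a spacing found in sites of Rel proteins, or TTCNNNGAA, the palindrome of STAT proteins, and the 2 motifs were searched apart from each other. GGNNNTTCC was in 4 of the 8 entries and in 18.5% of 32851 promoters of the same length, and TTCNNNGAA was in 1 of 8 and in 8.30%. TATAAA was in 2 of 8 and in 13.6%, and GGGCGG in 5 of 8 and in 35.7%, both unmarked. A match is a description of the letters only. The entries lie at chr9:88327359-88327658 on the plus strand for *Nt5e*, chr4:101717157-101717456 and chr4:101717656-101717955 on the plus strand for *Lepr*, chr9:21015690-21015989 on the plus strand for *Icam1*, chr2:32646345-32646644 on the plus strand for *Eng* and chr2:13574061-13574360 on the plus strand for *Vim*. Those not shown lie at chr2:102901616-102901915 (*Cd44*) and chr16:52453032-52453331 (*Alcam*), both on the minus strand.
Nt5e: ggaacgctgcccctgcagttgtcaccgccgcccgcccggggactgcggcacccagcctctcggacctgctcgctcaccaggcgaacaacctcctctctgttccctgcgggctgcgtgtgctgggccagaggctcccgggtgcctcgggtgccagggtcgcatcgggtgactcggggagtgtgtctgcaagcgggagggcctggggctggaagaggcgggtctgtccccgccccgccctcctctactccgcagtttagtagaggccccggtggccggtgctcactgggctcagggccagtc
Lepr, first start: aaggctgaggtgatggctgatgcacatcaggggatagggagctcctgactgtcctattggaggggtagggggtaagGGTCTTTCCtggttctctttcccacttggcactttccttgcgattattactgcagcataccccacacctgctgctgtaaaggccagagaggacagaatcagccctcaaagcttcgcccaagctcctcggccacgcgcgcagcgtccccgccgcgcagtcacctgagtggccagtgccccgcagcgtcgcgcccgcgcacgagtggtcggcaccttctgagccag
Lepr, second start: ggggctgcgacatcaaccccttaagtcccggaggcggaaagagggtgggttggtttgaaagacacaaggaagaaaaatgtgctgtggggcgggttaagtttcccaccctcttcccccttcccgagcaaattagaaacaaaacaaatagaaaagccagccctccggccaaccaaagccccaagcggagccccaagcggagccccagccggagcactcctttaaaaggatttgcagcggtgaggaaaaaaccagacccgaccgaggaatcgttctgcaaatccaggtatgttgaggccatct
Icam1: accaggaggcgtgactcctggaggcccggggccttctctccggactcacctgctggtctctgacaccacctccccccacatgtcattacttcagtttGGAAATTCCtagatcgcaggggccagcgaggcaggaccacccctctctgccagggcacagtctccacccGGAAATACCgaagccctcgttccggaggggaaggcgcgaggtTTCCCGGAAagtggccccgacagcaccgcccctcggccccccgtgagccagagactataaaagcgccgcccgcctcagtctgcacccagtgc
Eng: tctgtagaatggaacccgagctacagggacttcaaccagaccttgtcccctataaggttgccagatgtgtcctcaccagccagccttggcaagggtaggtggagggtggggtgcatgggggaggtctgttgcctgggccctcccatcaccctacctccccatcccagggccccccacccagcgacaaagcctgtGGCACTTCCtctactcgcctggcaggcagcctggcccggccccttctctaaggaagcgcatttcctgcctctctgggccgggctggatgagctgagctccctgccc
Vim: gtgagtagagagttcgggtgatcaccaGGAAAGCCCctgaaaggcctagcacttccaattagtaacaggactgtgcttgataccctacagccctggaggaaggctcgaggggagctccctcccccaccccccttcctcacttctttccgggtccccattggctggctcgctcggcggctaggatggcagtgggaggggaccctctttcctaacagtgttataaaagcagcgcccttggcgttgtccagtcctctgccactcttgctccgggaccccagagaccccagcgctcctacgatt
The *Icam1* entry held both motifs, the entries of *Vim*, *Eng* and the first *Lepr* start held GGNNNTTCC alone, and those of *Nt5e*, the second *Lepr* start and the undisplayed *Cd44* and *Alcam* held neither.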

How the data were processed

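The deposited scanner files hold spot intensities of 1 Agilent one-color array per group, which the authors' Feature Extraction software had corrected for background but not normalized between arrays. Its version is 12.0.3.1 in the file headers and 9.1 in the labels. The authors' series matrix holds these intensities times 1 constant per array (1.13, 1.34, 0.941 and 1.13, of unstated origin) on a linear scale, with log2 medians of 5.36, 5.70, 4.67 and 4.95. Of 62976 spots, 59305 are not controls, and 57.6% of these matched a symbol by accession in a RefSeq table of GRCm38.p6. The array's own grid names build mm9, so no gene coordinates were taken from that table apart from the promoter entries.

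Levels were log2 intensities minus the array's 75th percentile. A probe counted where it was not saturated, had uniform spot and background, and was well above background on both arrays. These flags passed for 63.8%, 64.3%, 59.7% and 60.0% of spots. Means were taken over the spots of each probe, then over the probes of each gene. The steps were tested on simulated data. Spot noise came from probes printed on 10 spots (median SD 0.042, 0.044, 0.040 and 0.041). No test was run, since each group has 1 array, and no joint genotype term over both cell types was fitted.

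The 8 alternatives were flags on at least 1 array, no flags, a shift by the median, quantile normalization, the 75th percentile over probes detected on all arrays, normexp with an offset of 50, the series matrix values, and the brightest probe of a gene. Normexp used the median spot signal, since the files hold no mean. Members and lists were chosen with earlier results of these data known. The lists were other MSC surface genes, filament genes, partners of the 10 genes, the Ly6 family, genes MSCs should lack, and markers of fibroblasts, CD8+ T cells, B lineage, leukocytes, granulocytes, macrophages, endothelium, pericytes and smooth muscle, erythroid cells, keratinocytes, skeletal muscle and adipocytes. Named from each list of related genes were the 4 measured genes with the highest mean signal, plus partners or family members of the 10 genes. From marker lists the brightest gene and the gate genes were named. *Cd2*, *Cd34*, *H2-Eb1* and the other T cell markers past 2-fold between the MSC arrays were given ratios or levels after their values were seen. The 2 nearest profiles per gene left out clone and predicted names. Scripts ran in R 4.3.3 with limma 3.58.1 and in Python 3.11.15 with matplotlib 3.10.9, numpy 2.4.6 and pandas 2.3.3.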

Additional observations from a re-analysis of the deposited data

Results flagged for a closer look

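*Nt5e*, the gene of CD73, differed between genotypes in opposite directions in the 2 cell types, by more than the spot noise of 0.12 in each under the main settings. Its log2 ratio was 1.79 in MSCs, from -2.23 to -0.45, and -0.21 in CD8+ T cells, from 0.60 to 0.39, a difference of 2.00. Of all genes measured in CD8+ T cells, 17.3% had a ratio below that of *Nt5e*. The signs were kept under all 8 alternatives, and the MSC ratio ran from 1.28 to 1.99. The CD8+ T ratio had -0.36 as its lowest value and -0.08 as its highest, the latter under the series matrix values and within the spot noise. Among the 10 genes no other met this condition under the main settings. Under the shift by the median *Icam1*, *Lepr*, *Cd44* and *Vim* met it too, under normexp *Icam1* (0.37 and -0.13), and with the brightest probe *Cd44* (0.86 and -0.34, from a different probe in each cell type). Single probes of *Cd44* (A_55_P2166501, 0.47 and -0.34, and A_55_P2912261, 0.86 and -0.13) and *Alcam* (A_51_P359272, -0.25 and 0.45) met it under the main settings. *Nt5e* has 1 probe and each group 1 array, so the difference was not tested.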

How the results depend on the processing

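No paired analysis was run. Each group has 1 array, so that the genotype difference within a cell type has no replicate, and no array could be left out for the same reason. A genotype term common to both cell types, with cell type as a block, was not fitted. Between genotypes in MSCs 8 of the 10 genes kept their sign under all 8 alternatives, and *Nt5e*, *Vcam1* and *Ly6a* stayed past 2-fold. *Thy1* left that side under the shift by the median, and *Lepr* without flags (0.61), under that shift (0.90), normexp (0.80) and the brightest probe (0.25). The MSC median was 0.83 without flags, 0.86 under the median shift, 1.10 under quantile normalization, 0.76 under normexp, 1.21 under the series matrix and 0.78 with the brightest probe. Members at least 2-fold higher were 3 of 10 under the median shift, where 2563 of 15298 genes were.

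In CD8+ T cells 5 of 10 kept their sign, and 0 of 10 passed 2-fold under any alternative. The median was 0.15 without flags, -0.10 under the median shift and 0.18 under the series matrix. In MSCs over CD8+ T cells 8 of 10 kept their sign in Wt and 7 of 10 in *Sipa1*-/- cells. The Wt median was -0.18 with flags on at least 1 array and without flags, -0.70 under the median shift, -0.40 with the percentile over detected probes and -0.011 under the series matrix. The *Sipa1*-/- median was 0.41 with flags on at least 1 array and without flags, -0.32 under the median shift, -0.021 under normexp and 0.43 under the series matrix, and 3 of 10 members were at least 2-fold lower under the median shift, where 3714 of 14300 genes were. Between Wt cell types *Cd44* left 2-fold under the series matrix (-0.96). Between *Sipa1*-/- cell types *Nt5e* (-1.06) and *Thy1* (-1.13) passed it under the median shift, although *Thy1* was at -0.06 under quantile normalization, and *Vim* under quantile normalization and the series matrix. No gene of the 10 that was past 2-fold in the main values turned to the other side of 0. The cause was not tested.

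The median of all genes in the 4 comparisons (0.04, -0.02, -0.06 and -0.18) was -0.10, -0.17, -0.29 and -0.41 under the median shift and 0.25, 0.11, 0.39 and 0.34 under the series matrix, and -0.16 between Wt cell types without flags and -0.07 between *Sipa1*-/- cell types with flags on at least 1 array. The percentage of higher genes among those past 2-fold (63.1, 65.5, 57.4 and 54.0) was 74.1, 76.3, 76.6 and 76.3 under the series matrix. Under the median shift it was 52.5 in CD8+ T cells, 45.5 in Wt and 42.9 in *Sipa1*-/- cell types, and under normexp 52.4 in CD8+ T cells. In MSCs normexp gave 1828 higher genes against 2958. In CD8+ T cells, against 381 higher and 201 lower, flags on at least 1 array gave 685 and 371, no flags 1059 and 633, and normexp 108 and 98. Between Wt cell types flags on at least 1 array gave 3898 higher and no flags 4185, against 2457, and the series matrix 1082 lower, against 1821. Between *Sipa1*-/- cell types these were 4739 and 5019 against 3131, and 1357 against 2671. Signal over background limits the *Lepr* ratios between cell types.

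List counts that moved by over 1.5 times and 2 or more genes follow. Between genotypes in MSCs, filament genes past 2-fold upward were 1 under normexp and 5 under the series matrix (main 3), Ly6 genes and the genes MSCs should lack 2 each under the median shift (main 4 each), macrophage markers 0 under normexp and 4 under the series matrix and the brightest probe (main 2) and pericyte and smooth muscle markers 2 under normexp (main 4). Between the CD8+ T arrays, partners past 2-fold upward were 0 under normexp (main 3), and downward there were 3 granulocyte markers under the series matrix (main 5) and 2 and 3 erythroid markers under normexp and the series matrix (main 5). Between Wt cell types, filament genes lower in MSCs were 2 under the median shift (main 0), pan-leukocyte markers lower 5 under the series matrix (main 8), endothelial ones 1 under normexp (main 3), and pericyte and smooth muscle markers higher 2 under normexp (main 4). Between *Sipa1*-/- cell types, lower were 0 other MSC surface genes under normexp (main 2) and 1 macrophage marker under the series matrix (main 4), and higher were 10 partners under the series matrix (main 6). With flags on at least 1 array or none, where probes not well above background enter, counts or medians of the filament, endothelial, keratinocyte, skeletal muscle and adipocyte lists moved too.

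List medians that moved by as much, beside those in the report, were 1.32 for other MSC surface genes between Wt cell types under normexp (main 2.04), -0.15 and 0.07 for Ly6 genes between Wt and *Sipa1*-/- cell types under quantile normalization (main -0.87 and -0.56), -6.09 for T cell markers between Wt cell types under normexp (main -6.95), 0.76 for granulocyte markers there under quantile normalization (main 0.12), and -0.72 for endothelial markers between *Sipa1*-/- cell types under normexp (main -1.56).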
